A study of Bos taurus with 15 samples.

Results

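Macrophages of the newborn (NB) intestine were examined in 6 single-cell RNA sequencing (scRNA-seq) libraries, 1 each of the duodenum, jejunum, ileum, cecum, colon, and rectum of Holstein dairy cows at the newborn stage. Cells were chosen by measured values: a barcode was taken as a macrophage when it held 500 to 4000 genes and under 50000 unique molecular identifiers (UMIs), with at least 1 UMI each of *C1QA* and *C1QB* and no UMI of *CD3E* or *EPCAM*. The rule kept 5452 of the 47981 barcodes within the gene and UMI limits in these libraries (11.4%), out of 132361 such barcodes in all 15 libraries. The study collected tissue from 3 NB calves, and the sources used here do not say which calf gave which library, so calf and segment cannot be told apart. All 6 NB segments had their muscle layers removed and passed through EDTA, trypsin, and a lamina propria enzyme kit. For comparison, the same rule was applied to 4 adult (AD) libraries (duodenum and jejunum, cecum and colon), all from 1 lactating Holstein cow, and kept 5558 cells. The AD segments also lost their outer muscle layers but were digested directly, the duodenum and cecum with the lamina propria kit and the jejunum and colon with a multi-tissue kit, so stage, animal, and dissociation cannot be told apart.

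Macrophages of the intestinal wall take up dying cells, bacteria, and lipids, break them down in lysosomes, and present peptides on class II major histocompatibility complex (MHC) molecules. *C1QA*, *C1QB*, and *C1QC* encode the chains of complement C1q, which tags particles for uptake and in the gut is made mainly by macrophages. Cells seeded before birth and cells replaced from blood monocytes can live side by side in the gut. *TIMD4*, a receptor for phosphatidylserine on dying cells, is known as a mark of long-lived residents, whereas *FCN1*, *S100A8*, *S100A9*, and *F13A1* are known from monocytes.

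The macrophages held 1941055 to 27062200 UMIs per library. The median per cell was 8887 UMIs in the duodenum, 8892 in the jejunum, 6521.5 in the ileum, 11262.5 in the cecum, 2712 in the colon, and 9807 in the rectum. The colon cells were thus the shallowest, and 143 of the 428 held under 700 genes. Levels are given below as CPM, the UMIs of a gene summed over all macrophages of a library and scaled to 1000000 UMIs. Each segment is 1 library, so single segments have no replicate and their intervals cover counting error only. Among the 15 pairs of NB intestinal libraries, 6 to 26 barcodes within the limits were shared (median 15), and 2 macrophage barcodes occurred in more than 1 NB intestinal library. Of the macrophages, 590 were scored as possible doublets and 27 held at least 40% mitochondrial UMIs.

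The label was checked against 22 macrophage identity genes, of which 21 stood above the other barcodes of the same library in all 6 segments (other barcodes are those within the limits without a UMI of *C1QA* or *C1QB*). Their summed level was 28850 CPM in the duodenum, 22153 in the jejunum, 15391 in the ileum, 16524 in the cecum, 17334 in the colon, and 17621 in the rectum. This was 8.71 to 40.9 times the level in the other barcodes. *CSF1R*, the receptor for the growth factor that macrophages depend on, lay between 671 CPM in the rectum and 1027 CPM in the duodenum. Epithelial and fibroblast markers were low. The summed level of 15 epithelial markers was 42.8 to 539 CPM against 801 to 14100 CPM in the other barcodes, and that of 8 fibroblast markers was 71.1 to 781 CPM against 569 to 8098 CPM. Dendritic cell markers (11 genes) summed to 211 to 543 CPM against 207 to 546 CPM, and to 543 against 207 CPM in the duodenum. Smooth muscle markers (6 genes) summed to 15.3 to 219 CPM against 135 to 1201 CPM, but to 206 against 192 CPM in the colon. The 8 neutrophil markers summed to at most 57.3 CPM in 4 segments, but to 986 CPM in the colon and 464 CPM in the rectum. The 10 T or NK cell markers summed to 906 to 1367 CPM, above the 111 to 742 CPM of the other barcodes. Of these, *NKG7* was 394 to 1074 CPM and *IL7R* 35.8 to 749 CPM, with *IL7R* above *NKG7* only in the rectum. *CD3D* was at most 0.838 CPM in these cells chosen for the absence of *CD3E*. Of the 10 genes, 2 were above the other barcodes in all 6 segments and 5 were below them in all 6. The B or plasma cell markers summed to 56.7 to 747 CPM, highest in the colon (747 CPM) and ileum (617 CPM), where *CD79A* was 35.3 and 46.4 CPM. These checks describe cells that the rule chose for C1q and are no test of it.

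The lower edge of the rule held fewer cells with a macrophage profile. Barcodes with exactly 1 UMI of each gene numbered 23, 368, 17, 54, 16, and 6 from duodenum to rectum, and 19.0% (jejunum) to 66.7% (rectum) of them showed at least 3 of 6 core macrophage genes. Barcodes just outside, with only 1 of the genes seen, showed them in 16.1% (jejunum) to 43.9% (rectum). Barcodes with neither gene showed them in 4.64% (ileum) to 32.8% (cecum), with 12.3% in the jejunum and 22.4% in the rectum. In the cecum, the share with 1 UMI of each gene was 35.2%, close to the 32.8% with neither. Among all macrophages the share was 84.9% (jejunum) to 97.1% (rectum).

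The share of macrophages among barcodes within the limits was 7.30% in the duodenum (619 of 8484), 23.0% in the jejunum (3013 of 13105), 5.29% in the ileum (400 of 7566), 12.3% in the cecum (788 of 6395), 8.91% in the colon (428 of 4803), and 2.67% in the rectum (204 of 7628). The jejunum was highest and the rectum lowest, and the small and large intestine overlapped. The small intestine averaged 11.9% ± 9.69 (SD, n = 3 segments) and the large intestine 7.97% ± 4.89 (SD, n = 3). The difference of 3.89 percentage points was smaller than the spread between segments (exact two-sided permutation test, p = 0.7, where 3 against 3 cannot go below 0.10). Without the jejunum it was -1.68 percentage points. Of the barcodes that carried both C1q genes, 619 also held *EPCAM* and 118 held *CD3E* and were left out by the rule. In such shares, the yield of the dissociation and the number of macrophages in the tissue cannot be told apart.

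**Figure D1:**
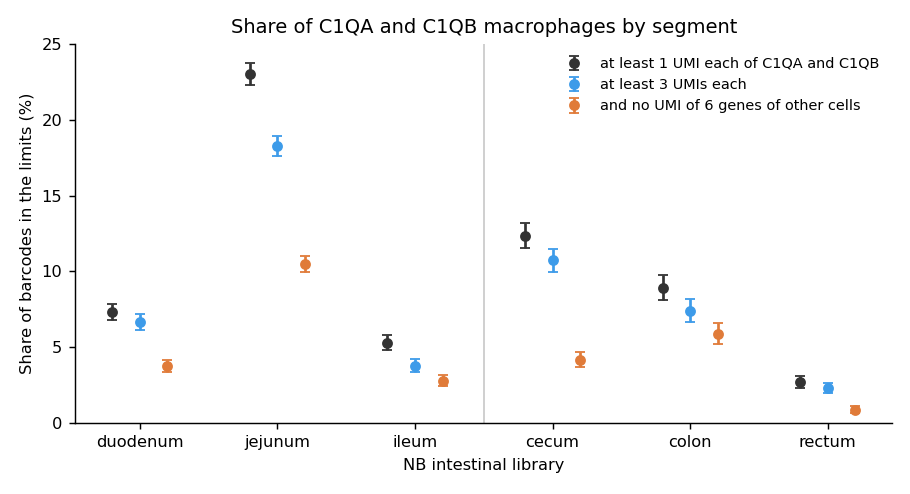
Share of barcodes taken as macrophages (y axis, percent of barcodes within the gene and UMI limits) in each of the 6 NB libraries (x axis), by the rule and by 2 stricter definitions (colors), with exact binomial 95% intervals that cover counting error only. The jejunum (23.0% by the rule) stands highest and the rectum (2.67%) lowest.

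The most abundant transcripts, leaving out ribosomal and mitochondrial genes, were led by *APOE*, *FTH1*, *CD74*, *BOLA-DRA*, *TMSB10*, and *C1QA*, by the median over the 6 segments in this 3′ UMI assay. They combine lipid transport (*APOE*), iron storage (*FTH1* and *FTL*), class II antigen presentation (*CD74*, *BOLA-DRA*, and *BLA-DQB*), and complement (*C1QA* and *C1QC*). The rule required *C1QA*, so its place was favored by the choice of cells. *C1QC*, which the rule did not use, was 14727 CPM in the duodenum, 9146 in the jejunum, 5505 in the ileum, 5933 in the cecum, 7994 in the colon, and 5970 in the rectum. It was highest in the duodenum, and the other barcodes held at most 53.9 CPM. *BOLA-DRA*, the class II alpha chain, was 23504, 14694, 8164, 15573, 10215, and 10594 CPM in the same order. The duodenum was again highest and the ileum lowest.

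To ask whether macrophages of the small and large intestine differed as groups, the 3 small segments were compared with the 3 large ones over 10037 genes. No gene passed the edgeR quasi-likelihood test at an adjusted p of 0.05 in either direction (0 genes, 0.0% of those tested), 819 genes (8.16%) had an unadjusted p under 0.05, and DESeq2 called 32 genes higher in the small and 63 higher in the large intestine. The levels of the 3 small and 3 large segments did not overlap for 588 genes higher in the small intestine (5.86%) and 675 higher in the large intestine (6.73%). Among the genes named below, DESeq2 called *F13A1*, *BPI*, *CTSH*, *NPC2*, *FCN1*, *CX3CR1*, *CTSC*, and *IL1B*, among others. The gene lists are read against these shares, since segments rather than calves are the units and the p-values measure the spread between segments.

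Lysosomal genes leaned to the small intestine without passing the test. Of 27 lysosomal genes tested, 7 were higher without overlap in the small intestine and 0 in the large, with a median log2 difference of 0.50 against 0.01 over all genes. *CTSH*, a lysosomal cysteine protease, was 4005 CPM in the duodenum, 3879 in the jejunum, and 3335 in the ileum, and 2303 in the cecum, 2008 in the colon, and 2319 in the rectum. Its log2 difference was 0.79 ± 0.19 (SE, edgeR adjusted p = 0.521). *NPC2*, the lysosomal cholesterol carrier, was 968, 1063, and 725 CPM in the small segments against 534, 611, and 462 CPM. Both genes kept the NB groups apart, but neither reached the adjusted threshold. With each AD cell drawn down to 1000 UMIs, the mean *CTSH* count was 2.26 in the duodenum (1 of 1018 drawn cells left out) and 2.55 in the jejunum. It was 2.20 in the AD cecum and 2.62 in the AD colon, so the AD groups overlapped for *CTSH*.

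*BPI*, which encodes a protein that binds and kills Gram-negative bacteria, showed a wide range. It was 4623 CPM in the duodenum, 2689 in the jejunum, 1749 in the ileum, 1144 in the cecum, 239.7 in the colon, and 392 in the rectum. Every small segment was above every large one, and the other barcodes held 15.6 to 174 CPM. The log2 difference was 2.40 ± 0.63 (SE, edgeR adjusted p = 0.521). In the AD libraries, which the NB comparison did not use, *BPI* was 2244 CPM in the duodenum, 2451 in the jejunum, 1244 in the cecum, and 1106 in the colon, again without overlap.

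*F13A1*, the coagulation factor XIII A chain found in monocytes and some macrophages, lay on the other side. It was 20.1 CPM in the duodenum, 16.4 in the jejunum, and 22.6 in the ileum, and 108 in the cecum, 114 in the colon, and 300.4 in the rectum. The groups did not overlap, and the log2 difference was -3.10 ± 0.45 (SE, edgeR adjusted p = 0.403). The other barcodes held 42.6 CPM in the cecum, 15.8 in the colon, 125 in the rectum, and 2.23 to 7.61 CPM in the small segments. They thus kept the groups apart in the same direction. In the AD cow it was 0.597 and 19.2 CPM in the duodenum and jejunum against 367 and 134 CPM in the cecum and colon.

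Of 14 monocyte genes tested, 5 were higher without overlap in the large intestine and 0 in the small, with a median log2 difference of -0.49. The lectin *FCN1* was 6.17 CPM in the duodenum, 22.7 in the jejunum, and 7.44 in the ileum, and 40.6 in the cecum, 100.2 in the colon, and 419 in the rectum. It was lowest in the small segments, with a log2 difference of -3.88 ± 0.95 (SE, edgeR adjusted p = 0.521). In the cecum, *FCN1* was below the 49.8 CPM of the other barcodes, and in the colon it was 39.9 CPM with doublets removed and 43.9 CPM with at least 3 UMIs of each C1q gene. The other barcodes also kept the groups apart for *FCN1*, at 5.20 to 7.89 CPM in the small and 39.7 to 230 CPM in the large segments. *CX3CR1*, the fractalkine receptor that marks many gut macrophages, was 1.00, 5.99, and 3.27 CPM in the small segments and 18.1, 11.5, and 42.8 CPM in the large ones. It was listed with the macrophage identity and tissue-resident subset genes, not with the monocyte genes. Of 15 tissue-resident subset genes tested, 2 (*CX3CR1* and *F13A1*) were higher without overlap in the large intestine and 0 in the small. Their list had a median log2 difference of 0.19. Of the 5 neutrophil markers tested, 4 were higher in the large intestine without overlap. These 4 (*S100A8*, *S100A9*, *S100A12*, and *CSF3R*) belong to both the neutrophil and the monocyte list and are also 4 of the 5 monocyte genes counted above. In the cecum and rectum, *S100A8*, *S100A9*, and *S100A12* were below the other barcodes of the same library. In the colon, *S100A8* and *S100A9* were above them and *S100A12* was below. Also higher in the large intestine without overlap were 2 of 9 dendritic cell markers (median -0.98) and 2 of 11 epithelial markers (median -0.55). Of 7 endothelial markers tested, 1 was higher in the small intestine without overlap. The part of these other cells in the differences was not tested.

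The other groups of genes were split. None of 12 class II MHC genes kept the small and large segments apart (median log2 difference 0.12). Of 18 interferon-stimulated genes, 2 were higher without overlap in the large intestine (median -0.82), and of 20 immediate early and stress genes, 5 were (median -0.50). None of 19 division genes stood apart (median -0.01). Among 28 transcription factors of macrophages, 2 stood higher in the small and 5 higher in the large intestine.

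**Figure D2:**
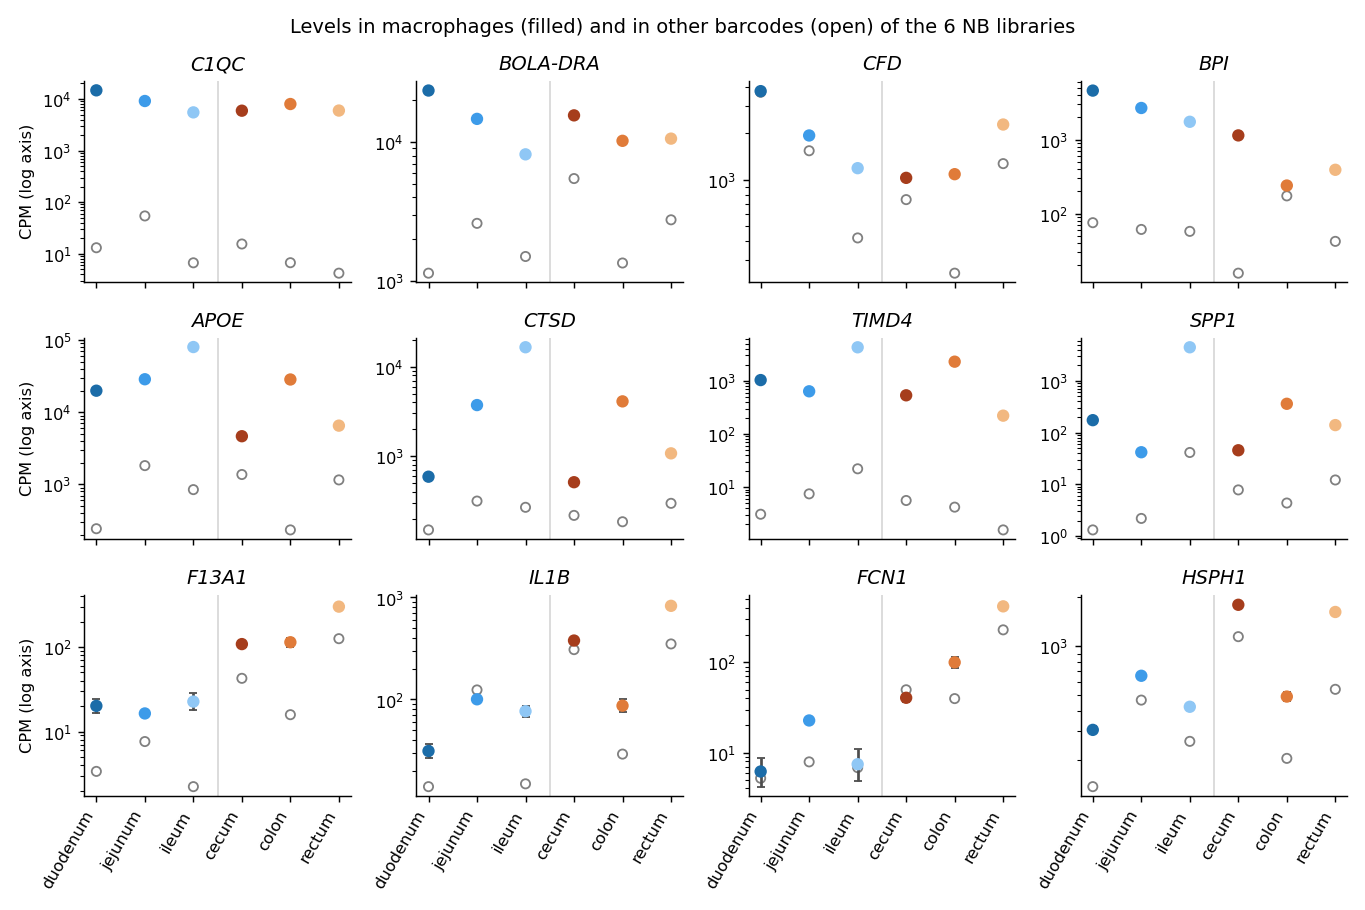
Level (y axis, CPM, log scale) of 12 named genes in macrophages (filled points, colored by segment) and in other barcodes (open points) of the 6 NB libraries (x axis), with exact Poisson 95% intervals for macrophages that cover counting error only and are mostly smaller than the points. *F13A1* and *FCN1* lie higher in the cecum, colon, and rectum (right of the vertical line) than in the small intestine, and *APOE*, *CTSD*, *TIMD4*, and *SPP1* peak in the ileum.

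The adult libraries gave a second look at the genes that kept the NB groups apart. Of the 588 genes higher in the NB small intestine, 127 (21.6%) were also higher without overlap in the AD duodenum and jejunum than in the AD cecum and colon, and 108 (18.4%) were opposite. Of the 675 higher in the NB large intestine, 211 (31.3%) were the same way and 74 (11%) were opposite. Over all genes tested, 14.5% were higher in the AD small and 24.1% in the AD large segments, and the shared genes made up 8.73% of the former and 8.71% of the latter. Of all 10037 genes tested, 127 were thus higher in the small and 211 in the large intestine at both stages. These 127 held 5 genes of the lists (among them *S100B*, *CD2*, *TPP1*, and *GRN*). The 211 held 11 (*CD1E*, *DDIT3*, *IRF5*, *KLF4*, *IER2*, *JUNB*, *CD55*, *TLR2*, *KRT19*, *CX3CR1*, and *F13A1*). Another 5 list genes were among the 108 and 74 opposite ones. *ABCA1* and *CTSC* were higher in the NB small and AD large segments, and *CD1A*, *CSF3R*, and *IRF7* in the NB large and AD small segments. Their share of all list genes was not computed, so these names are no result about the lists.

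By whole profile, neighboring segments were not the most alike beyond the upper small intestine. Over 4676 genes with at least 30 CPM in a segment, leaving out *C1QA* and *C1QB*, Spearman's rho was 0.934 between duodenum and jejunum, 0.911 between ileum and colon, and 0.909 between cecum and rectum, and each of these 6 segments had its partner as the nearest. The lowest rho, 0.778, was between ileum and rectum. These are correlations across genes of pooled cells and carry no test. The other barcodes of the same libraries paired in the same way, with rho of 0.822, 0.872, and 0.945, so the pairing was shared with the rest of each library and cannot be told apart from calf or library. The same pairs were nearest under every definition of the macrophages that was tried, except without barcodes carrying markers of other cells, where the cecum was nearest to the jejunum (rho 0.891).

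**Figure D3:**
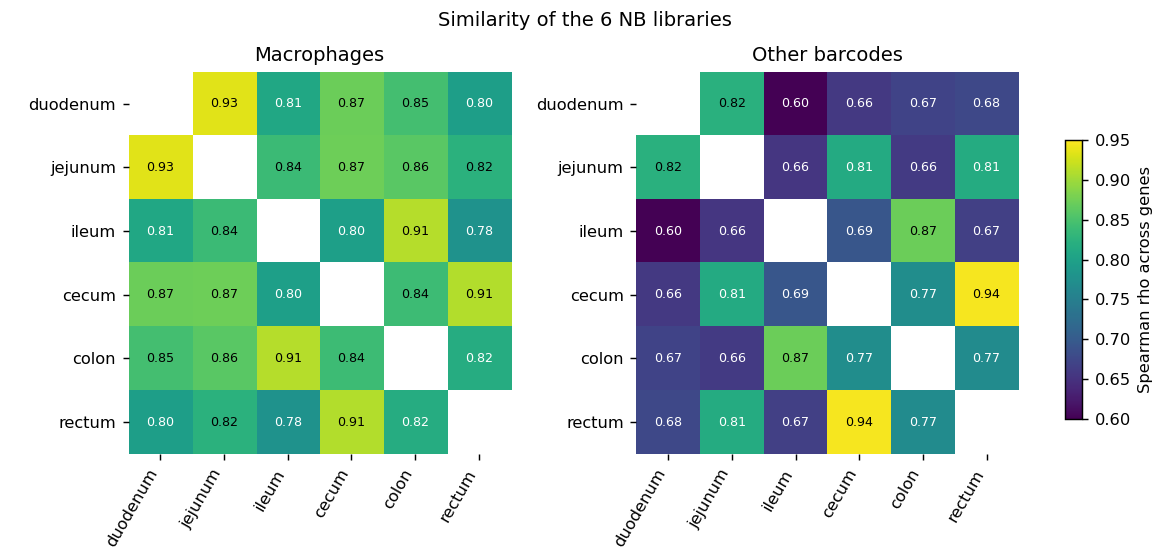
Spearman's rho across genes (color, with the value printed in each square) between each pair of NB segments, for macrophages on the left and for other barcodes on the right. In macrophages the 3 highest values are duodenum with jejunum (0.934), ileum with colon (0.911), and cecum with rectum (0.909), and the same pairs lead among the other barcodes.

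The ileum stood apart in *APOE*, *CTSD*, and *SPP1*. *APOE*, the apolipoprotein that carries cholesterol out of macrophages, was 19883 CPM in the duodenum, 28657 in the jejunum, 80096 in the ileum, 4652 in the cecum, 28430 in the colon, and 6520 in the rectum. The ileum was 2.79 times the next segment, and the cecum and rectum were lowest. *CTSD*, the lysosomal aspartic protease, was 589, 3726, 16525, 511, 4099, and 1075 CPM in the same order. *SPP1*, osteopontin, was 174, 41.8, 4447, 45.6, 360.2, and 139.6 CPM. Both were highest in the ileum, and the other barcodes of the ileum held 268 CPM of *CTSD* and 41.3 CPM of *SPP1*.

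A few antimicrobial peptides also stood highest in the ileum. *TAP*, the tracheal antimicrobial peptide, was 1.39 CPM in the duodenum, 19.2 in the jejunum, 279 in the ileum, 4.31 in the cecum, 12.8 in the colon, and 6.70 in the rectum. *DEFB10*, a beta-defensin, was 0, 0.0370, 369.7, 0.717, 32.2, and 3.09 CPM in the same order, and the duodenum had no UMI of it. Both lay above the other barcodes of the ileum, which held 4.13 and 5.66 CPM. These peptides belong to a large family of similar genes, and reads may be split among its members. Among genes with at least 30 CPM in a segment, and with 5 CPM added to each level, 39 of 4678 (0.834%) were at least 2-fold higher in the ileum than in each of the other 5 segments, against 11 (0.235%) for the duodenum, 36 (0.77%) for the jejunum, 6 (0.128%) for the cecum, 10 (0.214%) for the colon, and 45 (0.962%) for the rectum.

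Single cells showed that the ileal level came from a part of its macrophages. After thinning every cell to 1000 UMIs, which left out 3 to 12 shallower cells per library, the median *APOE* count was 15 in the duodenum, 26 in the jejunum, 21 in the ileum, 2 in the cecum, 18 in the colon, and 2 in the rectum. The ileal median was thus below the jejunal one, while the 90th percentile was 169.8 *APOE* UMIs in the ileum, against 58 in the jejunum and 92.8 in the colon. At least 100 *APOE* UMIs per 1000 were found in 123 of 393 ileal cells (31.3%, exact binomial 95% interval 26.7 to 36.1%), in 38 of 423 colon cells (8.98%, 6.44 to 12.1%), in 3 of 3001 jejunal cells, and in 0 of 613 duodenal, 0 of 783 cecal, and 0 of 201 rectal cells, which allows shares of up to 0.489, 0.383, and 1.49% (3 cells of those counted). The line at 100 marks a range and not a type: 28 ileal, 40 colon, and 55 jejunal cells lay between 80 and 119. In the AD libraries, 1 of 1018 duodenal cells passed it and 0 of the jejunum, cecum, and colon.

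**Figure D4:**
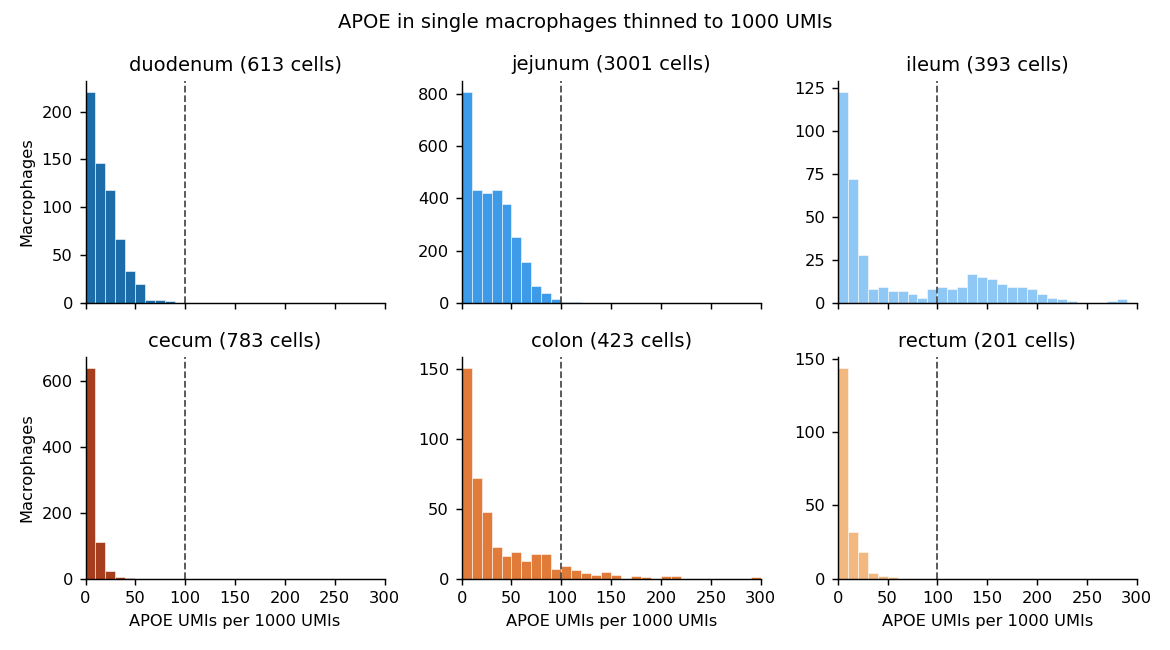
Number of macrophages (y axis, a scale of its own in each panel) by *APOE* UMIs per 1000 UMIs (x axis) in the 6 NB segments, after thinning every cell to the same depth. The dashed line marks 100 UMIs, with 123 of 393 ileal cells and 38 of 423 colon cells at or above it and none in the cecum or rectum.

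The ileal cells above the line differed from the ileal cells below it in more than *APOE*. Their mean count per 1000 UMIs was 28.7 against 5.58 for *CTSD*, 8.06 against 1.28 for *TIMD4*, and 8.44 against 0.341 for *SPP1*, which was seen in 83.7% against 9.63% of cells. *TAP* was seen in 36.6% against 10.4% and *DEFB10* in 23.6% against 4.81%. The complement gene *C1QC* was lower, at 1.65 against 9.96, as were the class II genes *BOLA-DRA* (2.30 against 12.3) and *CD74* (3.84 against 14.1). The complement and class II lists as a whole were not compared across the line.

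Receptors differed gene by gene between the ileal cells above and below the line. The mannose receptor *MRC1* was seen in 0 of these 123 cells against 12.2% of the cells below the line, and the scavenger receptor *MSR1* in 0 against 15.9%, where 0 of 123 allows up to 2.44% of cells with a UMI at this depth (3 cells of those counted), not of cells that express the gene. *FOLR2*, the folate receptor, was seen in 36.6% against 40.4%, *CSF1R* in 40.7% against 45.9%, and *TIMD4* in 98.4% against 46.7%. *CFD*, complement factor D, was seen in 0.813% against 57.4%. The B cell gene *CD79A* was seen in 0.813% against 5.19%, and the median depth before thinning was 10958 against 6038 UMIs. These genes were compared between cells split by one of them in 1 library, so the values are a description with no test.

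The colon repeated part of this pattern at lower levels. Above the line its cells held a mean of 20.3 *CTSD* UMIs against 3.57 below it, 5.74 *TIMD4* UMIs against 2.65, and 1.39 *SPP1* UMIs against 0.265, and 5.95 *C1QC* UMIs against 9.59. *MRC1* was seen in 0 of 38 (which allows up to 7.89% with a UMI) against 9.87%, *MSR1* in 0 of 38 against 6.75%, and *CFD* in 15.8% against 37.9%. Depth was alike here, with medians of 2784 and 2740 UMIs. With only cells under 10% *APOE*, a limit set after the data were seen, the ileum held 19420 CPM of *APOE*, under the 28628 CPM of the jejunum, but it stayed highest for *CTSD* (5872 CPM) and *SPP1* (778 CPM).

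*TIMD4*, the phosphatidylserine receptor, was found in all 6 segments. It was 1034 CPM in the duodenum, 636 in the jejunum, 4277 in the ileum, 535 in the cecum, 2295 in the colon, and 222 in the rectum. The ileum was highest and the rectum lowest, and the small and large intestine overlapped (log2 difference 1.01 ± 1.04 SE, edgeR adjusted p = 0.818). With only cells under 10% *APOE* the colon was highest, at 2029 CPM, and the ileum held 1308 CPM.

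At 1000 UMIs per cell, *TIMD4* was seen in 58.7% of macrophages of the duodenum, 40.3% of the jejunum, 62.9% of the ileum, 38.3% of the cecum, 73.8% of the colon, and 18.9% of the rectum. Before thinning it was seen in 49.0% (rectum) to 85.8% (duodenum). The other barcodes, in a separate draw to the same depth, showed it in 0.132 to 1.50%. At 1000 UMIs per cell, though not before thinning, the colon had the largest share of cells with *TIMD4*, although its CPM was lower than in the ileum.

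Cells with and without a *TIMD4* UMI, thinned to the same depth, differed in the same direction in all 6 segments for several genes. *APOE* was seen in 97.5, 98.8, 99.6, 81.7, 97.1, and 86.8% of cells with *TIMD4* from duodenum to rectum, against 82.6, 79.7, 78.8, 54.5, 63.1, and 50.3% of cells without it. *FOLR2* was seen in 40.9% (ileum) to 63.2% (rectum) with *TIMD4* and in 30.0% (cecum) to 44.3% (duodenum) without it, higher in each segment. *NKG7*, a cytotoxic granule gene, was seen in 47.3% (cecum) to 68.8% (ileum) with *TIMD4* against 16.6% (rectum) to 39.9% (duodenum) without it. *S100A4*, a calcium-binding protein of motile cells, was the reverse, at 1.21% (ileum) to 23.7% (rectum) with *TIMD4* against 3.56% (duodenum) to 49.7% (rectum) without it. General macrophage genes also differed: *C1QC* was seen in 99.7, 99.2, 80.2, 98.3, 97.8, and 100% of cells with *TIMD4* against 85.4, 70.6, 78.8, 80.3, 78.4, and 84.0% without it (in the ileum the counting intervals overlapped), and the share with *CSF1R* was higher with *TIMD4* in each segment. The cells without a *TIMD4* UMI thus held more barcodes without these macrophage genes. The counting intervals with and without *TIMD4* lay apart in all 6 segments for *APOE* and *NKG7* and in 5 for *FOLR2* and *C1QC*. For *S100A4* they lay apart in 4 segments and for *CSF1R* in 2. Cells of 1 library are not replicates, so these shares carry no test.

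The rectum was highest for *S100A4*, *IL1B*, *IL1RN*, and *FCN1*. *S100A4* was 38.8 CPM in the duodenum, 145 in the jejunum, 128 in the ileum, 268 in the cecum, 412 in the colon, and 1445 in the rectum. *IL1B*, the inflammatory cytokine interleukin-1 beta, was 31.3, 100.4, 76.7, 378, 87.0, and 828 CPM in the same order. *IL1RN*, the antagonist of its receptor, was 45.6, 49.3, 29.1, 113, 49.0, and 439 CPM. The cecum was second for *IL1B* and *IL1RN*, and the colon for *S100A4*.

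The rest of the rectal library was also high in some of these genes. Its other barcodes held 230 CPM of *FCN1*, 350 CPM of *IL1B*, and 935 CPM of *S100A4*, the highest of the 6 segments for each, and 136 CPM of *IL1RN*. At 1000 UMIs per cell, *IL1B* was seen in 36.3% of rectal macrophages (63.7% before thinning) against 13.4% of the other barcodes. *IL7R*, the interleukin-7 receptor, was 749 CPM in the rectum, 259 in the cecum, and 35.8 to 76.1 in the other 4 segments, with 58.9 CPM in the other barcodes of the rectum. *MMP12*, a macrophage elastase, was 112 CPM in the rectum.

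The cecum and rectum held the highest levels of *HSPA1A*, *HSPH1*, and *IFI6*. *HSPA1A*, the inducible 70-kilodalton heat-shock protein, was 5516 CPM in the duodenum, 8154 in the jejunum, 5324 in the ileum, 15825 in the cecum, 6984 in the colon, and 13288 in the rectum. *HSPH1*, its nucleotide exchange factor, was 306, 657, 424, 1793, 490, and 1620 CPM in the same order. The other barcodes of the cecum were also the highest for *HSPA1A* (9386 CPM) and *HSPH1* (1142 CPM) among the 6 segments.

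*IFI6*, an interferon-stimulated gene, was 65.9 CPM in the duodenum, 183 in the jejunum, 445 in the ileum, 1048 in the cecum, 202 in the colon, and 1431 in the rectum. The other barcodes of the cecum and rectum held 1005 and 1442 CPM, about as much as the macrophages. *IRF8*, a transcription factor of monocytes and dendritic cells, was 123 CPM in the cecum and 65.9 in the rectum, against 6.25 to 16.7 in the other 4 segments. It lay above the other barcodes of these libraries, which held 75.3 and 31.8 CPM. *PDK4*, a kinase that limits glucose oxidation, was highest in the cecum, at 540.1 CPM against 58.3 to 215 in the other segments.

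The duodenum was highest for *C1QC* and *BOLA-DRA*, as given above, and for the receptors *CD163* and *VSIG4*. *CD163*, the receptor for hemoglobin and haptoglobin, was 161 CPM in the duodenum, 115 in the jejunum, 41.0 in the ileum, 40.2 in the cecum, 31.3 in the colon, and 63.9 in the rectum. *VSIG4*, a receptor for complement C3 fragments, was 179, 122, 41.3, 36.1, 46.4, and 55.6 CPM in the same order. Both were highest in the duodenum and jejunum, and neither kept the small and large segments apart. *CFD* was 3760 CPM in the duodenum, but its other barcodes held 3698 CPM. In the jejunum, *GPNMB*, a lysosomal glycoprotein, reached 159.7 CPM against 10.2 to 72.1 in the other segments.

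Colon macrophages were highest for the calprotectin genes and for *DAB2*, an endocytic adaptor. *S100A8* was 0.797 CPM in the duodenum, 2.07 in the jejunum, 0.297 in the ileum, 5.74 in the cecum, 232 in the colon, and 44.3 in the rectum, and *S100A9* was 1.19, 5.69, 2.97, 9.93, 380.1, and 104 CPM. The colon was far above the rest, and its other barcodes held 169.6 and 224 CPM. With at least 3 UMIs of each C1q gene, or with doublets removed, the rectum was highest instead and the colon held 16.5 CPM of *S100A8*. *DAB2* was 388 CPM in the colon against 109 to 187 in the other segments, with 15.8 CPM in the other barcodes.

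Finally, NB macrophages were set beside the AD cells chosen in the same way, to show where they differed. The AD cells were mostly shallower, with a median of 2386 (duodenum) to 3211.5 (colon) UMIs against 2712 (colon) to 11262.5 (cecum) in NB. Thinning whole libraries did not match the depth per cell, and the part of depth in the differences was not tested. Of 9772 genes tested over 6 NB and 4 AD libraries, 1138 (11.6%) were higher in NB and 882 (9.03%) higher in AD by edgeR at an adjusted p of 0.05. With the tissue as a block, 557 and 336 of 9895 genes were called. Without cells that carried markers of other cells, 409 and 325 of 7337 were called. With the libraries thinned to the smallest, 509 and 404 of 6230 were called. The counts were 573 and 436 without the AD jejunum and 670.0 and 556 without the AD duodenum, and 754 genes were higher in NB without the AD cecum. The marker filter (no UMI of *COL1A2*, *PECAM1*, *CD79A*, *JCHAIN*, *CPA3*, or *KRT8*) left out many cells. It kept 318 of 619 NB and 167 of 1031 AD cells in the duodenum, and 1372 of 3013 and 660 of 4122 in the jejunum. The cecum kept 266 of 788 NB and 125 of 181 AD cells, and the colon 282 of 428 and 94 of 224. In the NB ileum and rectum it kept 211 of 400 and 65 of 204. The NB and AD levels did not overlap for 917 genes higher in NB (9.38%) and 838 higher in AD (8.58%). All 20 immediate early and stress genes were higher in NB, with a median log2 difference of 3.23 against 0.04 over all genes. *EGR1*, an immediate early transcription factor, was 678 CPM (cecum) to 872 CPM (colon) in the NB segments and 20.6 to 38.7 CPM in the AD ones. It rose by 4.85 ± 0.21 (log2, SE, edgeR adjusted p = 3.85e-07) and was higher in all 6 NB libraries. In the other barcodes, this list summed to 10986 to 32753 CPM in NB and 6923 to 17518 CPM in AD. Enzyme digestion differed between the stages and cannot be told apart from age.

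Some cytokine and transcription factor genes were also higher in NB. The summed level of the cytokine list overlapped, at 6228 to 11551 CPM in NB and 3004 to 8667 CPM in AD. That of the transcription factors did not, at 4794 to 7255 CPM in NB and 2148 to 2775 CPM in AD. Of 29 cytokine and chemokine genes tested, 14 were higher in NB and 2 in AD, with a median log2 difference of 2.39. *TNF* was 274 to 550 CPM in the NB segments (median 382) and 14.9 to 39.4 CPM in the AD ones, a log2 difference of 3.65 ± 0.36 (SE, edgeR adjusted p = 0.000198). *IL1A* was 94.2 to 182 CPM in NB and 0 to 10.7 CPM in AD (log2 difference 4.42 ± 0.47 SE, edgeR adjusted p = 0.000305). Of 28 transcription factors, 12 were higher in NB and 3 in AD, with *HES1*, a target of Notch signaling, at 418 to 877 CPM against 20.7 to 36.2 CPM (log2 difference 4.45 ± 0.27 SE, edgeR adjusted p = 7.75e-06). *SPP1* was higher in NB as well (log2 difference 7.0 ± 2.01 SE, edgeR adjusted p = 0.0321), with most of its UMIs in the ileum. This call was lost in 5 of 21 alternatives, with edgeR adjusted p-values of 0.0776, 0.0874, and 0.0977 without the AD colon, duodenum, or jejunum, 0.0695 without cells carrying markers of other cells, and 0.0871 with the tissue as a block.

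The chemokines *CXCL9* and *CXCL11*, known to be induced by interferon-gamma, were higher in AD. *CXCL9* was 1.79 to 64.9 CPM in the NB segments and 238 to 4600 CPM in the AD ones (log2 difference -6.57 ± 1.05 SE, edgeR adjusted p = 0.0029), and *CXCL11* was at most 3.09 CPM in NB and 22.3 to 615 CPM in AD. Both were lower in every NB library than in every AD library. *CXCL10*, a related chemokine, was 9.27 to 94.4 CPM in NB and 66.9 to 980.1 CPM in AD (log2 difference -3.51 ± 0.78 SE, edgeR adjusted p = 0.0119), and its groups overlapped and the call was lost with the tissue as a block (adjusted p = 0.1). Of 12 class II MHC genes, 3 were higher in AD and 0 in NB. *CD74*, the invariant chain of class II, was 9753 to 22812 CPM in NB and 42195 to 52966 CPM in AD (log2 difference -1.60 ± 0.24 SE, edgeR adjusted p = 0.00191).

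Some receptors and lysosomal genes were also higher in AD. Of 27 lysosomal genes, 6 were higher in AD and 1 in NB. Of 22 macrophage identity genes, 4 were higher in AD, among them the scavenger receptor *MSR1* (log2 difference -1.60 ± 0.32 SE, edgeR adjusted p = 0.00743) and the cysteine protease *CTSS* (-1.23 ± 0.21 SE, edgeR adjusted p = 0.0039). The Fc gamma receptor *FCGR3A* was 103 to 340.0 CPM in NB and 659 to 839 CPM in AD, and *CD4* was 6.18 to 61.1 CPM in NB and 100.3 to 373 CPM in AD. *TIMD4* (222 to 4277 CPM in NB and 629 to 902 CPM in AD) and *F13A1* did not pass the test between the stages.

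All 7 endothelial markers tested were higher in NB, with a summed level over 8 genes of 131 to 479 CPM in NB macrophages and 12.5 to 32.7 CPM in AD cells. The other barcodes held 236 to 2101 CPM in NB and 17.5 to 75.5 CPM in AD. Of 9 B or plasma cell markers tested, 2 were higher in AD and 0 in NB, and the list summed to 56.7 to 747 CPM in NB and 2300 to 8272 CPM in AD. The part of this RNA from other cells in the counts above was not tested. With only genes above the other barcodes, 141 of 1191 genes were higher in NB and 120 in AD.

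**Figure D5:**
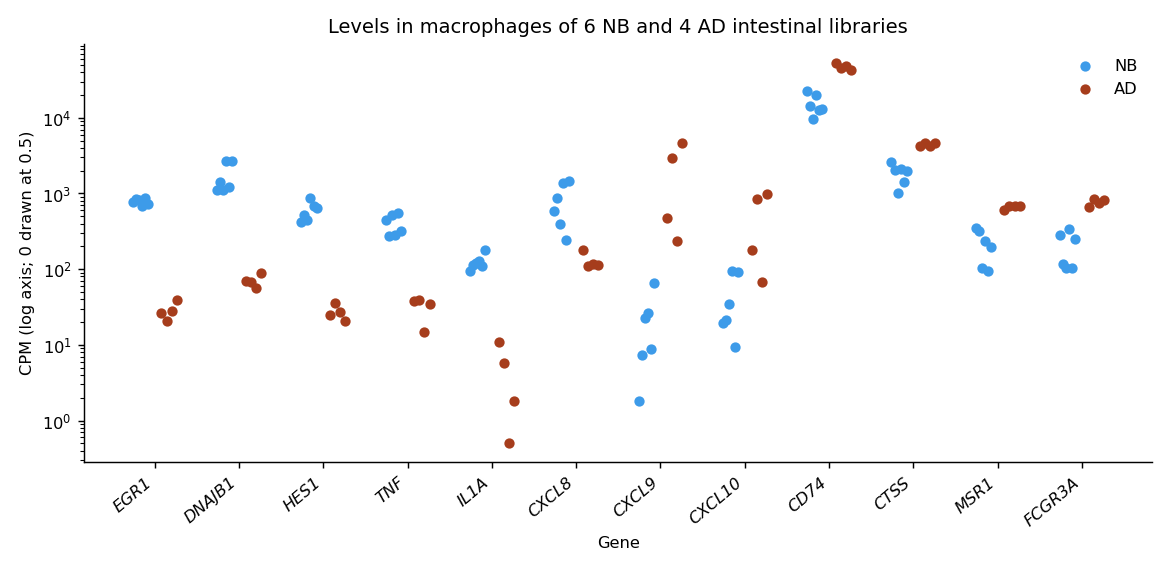
Level in macrophages (y axis, CPM, log scale, with 0 drawn at 0.5) of 12 genes (x axis) that differed between NB and AD, with 1 point per library (6 NB in blue and 4 AD in red). *EGR1*, *TNF*, and *HES1* lie higher in every NB library, and *CXCL9*, *CD74*, and *FCGR3A* higher in every AD library.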

How the data were processed

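The files hold UMI counts, deposited by the authors as 1 gene by barcode matrix per library. Per the study's methods, they were made from 10x 3′ v3 libraries with Cell Ranger 3.1.0 on the genome build ARS-UCD1.2, and the annotation release was not given in the sources used here. Values are raw UMI counts over 27270 genes. Some list genes were not measured under their symbol, and a few results are not reported here.

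Macrophages, adult cells by the same rule, and gene lists were chosen with earlier results of these data known. UMIs were summed over the macrophages of each library and given as CPM. Groups were compared with the edgeR 4.0.16 quasi-likelihood test (TMM, filterByExpr, Benjamini-Hochberg adjustment, threshold 0.05) in R 4.3.3, small (3) against large (3) segments and NB (6) against AD (4) libraries. *C1QA*, *C1QB*, *CD3E*, and *EPCAM* were not tested. Nothing says that libraries of a group came from separate animals, so p-values measure the spread between libraries. On simulated data, 17 of 100 genes changed 2-fold and 91 of 100 changed 4-fold were found for small against large (10037 genes, 2 false calls). For NB against AD, 49 and 100 of 100 were found (9772 genes, 8 false calls). In the measured data, small against large gave 0 calls, with *F13A1* (log2 difference -3.10) and *CX3CR1* (-2.66) among the genes not called. Whether the shares from simulated data hold at the measured spread between segments was not tested. Doublets were scored against simulated ones and kept in the reported values. Shares of cells came from random draws to 1000 UMIs per cell.

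Besides list genes, those named were the 15 most abundant, up to 4 per segment by ratio to the next segment with 5 CPM added, at least 100 CPM and above the other barcodes, and up to 8 per direction for NB against AD. The rule for small against large named 0. Alternatives were stricter and looser definitions of a macrophage, DESeq2 1.42.0, other scaling and filters, thinned counts, each library left out, and a tissue block.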

Additional observations from a re-analysis of the deposited data

Results flagged for a closer look

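Among 102 sets of values tested for a library far from the others (Dixon's test, which chance meets in about 1 of 20 sets), 20 held one. Many of these genes were named because 1 segment stood above the rest, so this chance rate does not apply to them and the values are a description. In the NB rectum these were *F13A1* (300.4 CPM), *FCN1* (419 CPM), *TLR2* (41.7 CPM), *IL7R* (749 CPM), *IL1A* (182 CPM), *MMP12* (112 CPM), *IL1RN* (439 CPM), and *S100A4* (1445 CPM). In the NB ileum they were *APOE* (80096 CPM), *SPP1* (4447 CPM), *CTSD* (16525 CPM), *DEFB10* (369.7 CPM), and *TAP* (279 CPM). The NB colon stood out for *DAB2* (388 CPM), *S100A8* (232 CPM), and *S100A9* (380.1 CPM), and the NB cecum for *PDK4* (540.1 CPM). Among AD cells, the duodenum stood out for *CXCL8* (177 CPM) and *MSR1* (612 CPM), and the cecum for *SPP1* (38.7 CPM). Each of these is 1 library without a replicate.

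Opposite patterns at the 2 stages were seen for *CTSC* and *IRF7* among the genes with a mean of at least 30 CPM, where NB and AD segments lay on opposite sides without overlap, and the difference was not tested. *CTSC*, a lysosomal protease, was higher in the NB small intestine by 0.54 (log2) and higher in the AD large intestine, and DESeq2 but not edgeR called its difference within NB. *IRF7*, an interferon regulatory factor, had a log2 difference of -0.84 in NB, higher in the large intestine, and was higher in the AD small intestine.

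Cells that met the same rule were found in NB libraries outside the intestine: 6 in the reticulum, 4 in the omasum, 160 in the abomasum, 3281 in the liver, and 77 in the salivary gland. They entered no comparison.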

How the results depend on the processing

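The macrophage share differed between small and large intestine by 1.24 to 7.17 percentage points when a library was left out, except without the jejunum, where it was -1.68, so the range was -1.68 to 7.17. For small against large, edgeR called 0 genes under the other settings, but DESeq2 called 32 and 63 (27 genes had no adjusted p). Leaving out 1 library gave 0 to 4 genes higher in the small and 0 to 3 in the large intestine (4 and 3 without the colon, 0 and 1 without the ileum). For NB against AD, 1138 and 882 of 9772 genes were called as reported. Without cells carrying markers of other cells, 409 and 325 of 7337 were called. Among genes above the other barcodes, 141 and 120 of 1191 were called, and 509 and 404 of 6230 after thinning to the smallest library. The number of genes tested differed between these settings, so the counts are not directly comparable. With the tissue as a replicate block in 4 NB and 4 AD libraries, 557 and 336 genes were called, and the tissues pair samples of different animals, so the pairing is by segment only. Leaving out 1 library gave 573 to 1144 genes higher in NB and 436 to 916 higher in AD (573 and 436 without the AD jejunum, 670.0 and 556 without the AD duodenum, and 754 higher in NB without the AD cecum). Cells under 10% *APOE*, chosen after seeing the data, gave 1114 and 912. Of 937 repeats for single named genes, 918 kept their side of the threshold and 10 gained a call (all with DESeq2). Another 9 lost one (5 for *SPP1*, 3 for *GPNMB*, and 1 for *CXCL10*). Among repeats with a call before or after the change of setting, 0 changed direction. Where neither fit called the gene, as in most repeats for small against large, changes of direction were not counted. For *SPP1*, DESeq2 gave no adjusted p. Depth limits the shallow colon cells most, and 1 library per segment leaves no replicate.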

Other observations

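Macrophages carried transcripts usually read as marks of lymphocytes. *NKG7*, a cytotoxic granule gene, was 814 CPM in the duodenum, 702 in the jejunum, 1074 in the ileum, 462 in the cecum, 767 in the colon, and 394 in the rectum. At 1000 UMIs per cell it was seen in 23.4% (rectum) to 61.1% (ileum) of macrophages, against 0.685 to 4.80% of the other barcodes. *CD2*, an adhesion receptor of T cells, was 308, 202, 161, 134, 148, and 59.8 CPM from duodenum to rectum and was seen in 2.99 to 22.5% of macrophages against 0.326 to 2.27%. The defining T cell genes *CD3D* and *CD3G* were at most 0.838 and 0.437 CPM in macrophages, but the rule left out every barcode with a UMI of *CD3E*, so these low levels were partly fixed by the choice of cells. The B cell gene *CD79A* was at most 46.4 CPM.

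Genes of iron handling were found in all 6 segments. *HMOX1*, which breaks down heme, was 1127 CPM in the duodenum, 1232 in the jejunum, 754 in the ileum, 939 in the cecum, 559 in the colon, and 883 in the rectum. *SLC40A1*, the iron exporter ferroportin, was 199.9, 145, 88.3, 139, 155, and 53.1 CPM in the same order. The rectum was lowest for the exporter, below the 86.8 CPM of its other barcodes, and *HMOX1* stood above the other barcodes in every segment.

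Division genes were present at low levels. *MKI67* was 13.3 CPM in the duodenum, 30.1 in the jejunum, 44.0 in the ileum, 51.3 in the cecum, 30.9 in the colon, and 21.6 in the rectum. The 19 division genes summed to 615 to 1679 CPM, against 1170 to 8257 CPM in the other barcodes, and 15 of them were below the other barcodes in all 6 segments.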
